A study of Mus musculus with 16 samples.

Results

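The mitochondrially encoded genes of tumour-bearing mouse lung were taken as every row of a bulk expression table whose gene symbol starts with mt-, which gave 30 of 30095 rows. They were 13 messenger RNAs, 2 ribosomal RNAs and 15 transfer RNAs. All 30 lie on chromosome M of mm10 and matched a gene of the GENCODE M21 annotation by position. That annotation holds 37 genes on chromosome M, and the other 7 transfer RNAs were not analysed here.

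The lungs came from C57BL/6 mice carrying HKP1 tumours, a mouse lung adenocarcinoma line, and were taken 24 to 48 h after radiotherapy. The mice had received 0, 4 or 8 Gy together with an antibody to the checkpoint receptor PD-1 or with IgG. There were 2 libraries for anti-PD-1 at 0 Gy, 3 for IgG at 0 Gy, 3 for anti-PD-1 at 4 Gy, 2 for IgG at 4 Gy, 3 for anti-PD-1 at 8 Gy and 3 for IgG at 8 Gy. Each of the 16 libraries was made from the whole lungs of 3 to 4 pooled mice, so host and tumour RNA were sequenced together. Every group carried the tumour, including the unirradiated IgG lungs. Sheet numbers in the labels run from 13 to 17 at 0 Gy, from 26 to 30 at 4 Gy and from 31 to 36 at 8 Gy. Were the doses prepared at different times, irradiation and preparation could not be told apart.

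The mitochondrial genome is a small circle present in many copies per cell. Both of its strands are transcribed into long precursors, and the transfer RNAs between the other genes are cut out of them, which releases the messengers and ribosomal RNAs. All 13 messengers encode subunits of the respiratory chain and ATP synthase, and the rest of those complexes is encoded in the nucleus. The lung holds many cell types that differ in how many mitochondria they carry, with alveolar type 2 cells among the richer ones.

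Neighbouring mitochondrial genes share bases, which bears on how reads could be assigned to them. The open reading frame of mt-Atp8, at chrM:7766-7969, ran into that of mt-Atp6 for 43 bases on the same strand. The bases of mt-Atp8 that also belong to mt-Atp6 are in capitals below, in a sequence taken 5′ to 3′ from the GENCODE M21 transcripts of mm10. On opposite strands, mt-Nd5 and mt-Nd6 shared their last 14 bases, in capitals in the last 40 bases of each, at chrM:13526-13565 on the plus strand and chrM:13552-13591 on the minus strand.
mt-Atp8: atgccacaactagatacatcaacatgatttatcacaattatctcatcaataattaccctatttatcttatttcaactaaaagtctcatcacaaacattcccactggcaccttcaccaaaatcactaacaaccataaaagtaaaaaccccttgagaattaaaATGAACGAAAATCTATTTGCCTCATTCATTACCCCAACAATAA
mt-Nd5 end: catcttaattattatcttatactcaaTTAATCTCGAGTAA
mt-Nd6 end: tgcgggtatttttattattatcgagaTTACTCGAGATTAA

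The remaining overlaps were short: 7 bases between mt-Nd4l and mt-Nd4, 3 between mt-Co1 and mt-Ts1 on the opposite strand, 3 between mt-Ti and mt-Tq, 2 between mt-Nd1 and mt-Ti, 2 between mt-Nd2 and mt-Tw, and 1 between mt-Atp6 and mt-Co3. Whether the counting used strand is not given in the sources used here. For the 9 members on the minus strand, mt-Nd6 and 8 transfer RNAs, reads from the gene and from the transcript of the other strand cannot be told apart. The 5 transfer RNAs that reached 1 CPM (a gene's reads scaled to the library's total) in at least 2 libraries are shown with their anticodon in capitals, as the only transfer RNAs that could be tested. They are mt-Ts1 (chrM:6870-6938, minus strand) for serine, mt-Te (chrM:14071-14139, minus strand) for glutamate, mt-Tn (chrM:5089-5159, minus strand) for asparagine, mt-Ty (chrM:5260-5326, minus strand) for tyrosine and mt-Tl1 (chrM:2676-2750, plus strand) for leucine.
mt-Ts1: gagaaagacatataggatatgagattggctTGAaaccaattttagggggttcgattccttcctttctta
mt-Te: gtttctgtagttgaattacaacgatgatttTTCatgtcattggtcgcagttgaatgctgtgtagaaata
mt-Tn: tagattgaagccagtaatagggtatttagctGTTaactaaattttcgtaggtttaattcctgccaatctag
mt-Ty: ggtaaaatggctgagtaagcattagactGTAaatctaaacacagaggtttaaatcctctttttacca
mt-Tl1: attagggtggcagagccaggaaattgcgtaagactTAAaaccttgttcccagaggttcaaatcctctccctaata

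Mitochondrially encoded RNA took a larger part of the 4 Gy libraries, and of most 8 Gy libraries, than of the unirradiated ones. In anti-PD-1 lungs the 30 genes held 1.44% and 3.73% of the CPM of all listed genes at 0 Gy, 5.72%, 4.37% and 4.14% at 4 Gy, and 5.54%, 3.91% and 1.69% at 8 Gy. In IgG lungs they held 1.01%, 2.37% and 2.16% at 0 Gy, 4.99% and 6.54% at 4 Gy, and 3.62%, 7.54% and 8.23% at 8 Gy. The lowest 4 Gy library was above the highest 0 Gy library. At 8 Gy the libraries spread more widely: replicate 3 of the anti-PD-1 lungs and replicate 1 of the IgG lungs lay inside the 0 Gy range, and replicates 2 and 3 of the IgG lungs were the highest of all 16. The mean share was 2.14% ± 1.04 (SD, n = 5) at 0 Gy, 5.15% ± 0.987 (SD, n = 5) at 4 Gy and 5.09% ± 2.50 (SD, n = 6) at 8 Gy. In bulk lung, more mitochondrial RNA per cell and more cells rich in mitochondria cannot be told apart.

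**Figure D1:**
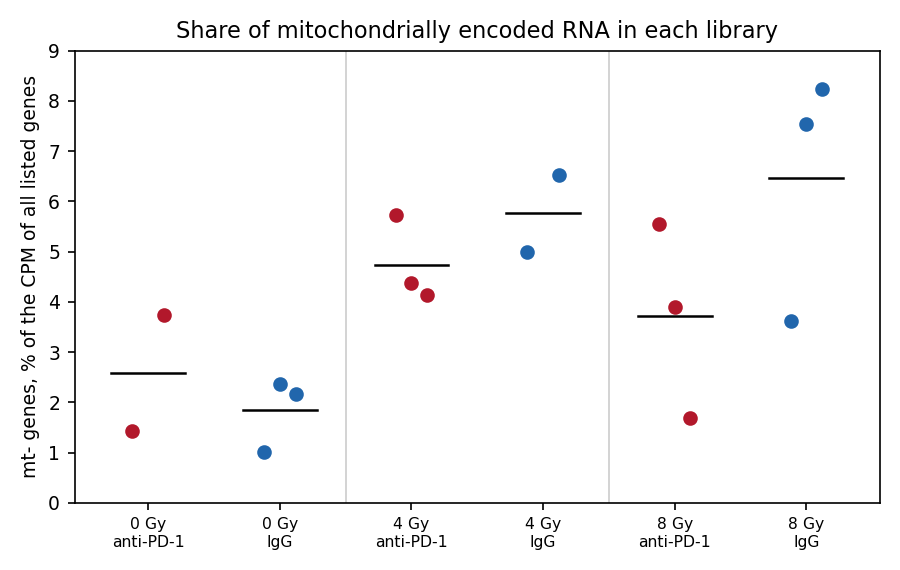
Share of the CPM of all listed genes held by the 30 mitochondrially encoded genes (y axis, %), by dose and antibody (x axis); each point is 1 library and each line a group mean. All 4 Gy libraries lie between 4.14% and 6.54%, above the highest 0 Gy library at 3.73%, and the 8 Gy libraries run between 1.69% and 8.23%.

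The split among the complexes varied less between libraries than the total did. Messengers of complex IV (cytochrome c oxidase) held 47.0% to 54.8% of the mitochondrial CPM over the 16 libraries. Those of complex I (NADH dehydrogenase) held 25.5% to 31.4%, and mt-Cytb, the mitochondrial subunit of complex III, held 11.6% to 17.4%. The 2 messengers of complex V (ATP synthase) held 1.58% to 5.46%, the ribosomal RNAs 0.981% to 1.65% and the transfer RNAs 0.0445% to 0.221%.

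Per kilobase of gene, mt-Co1 had the highest mean level, 9327 ± 4720 CPM per kb (SD, n = 16), followed by mt-Cytb with 5114 ± 2870 and mt-Co2 with 3568 ± 1721. Per kilobase mt-Co1 was above mt-Cytb in 16 of 16 libraries and mt-Cytb above mt-Co2 in 14 of 16. Among the messengers the lowest were mt-Nd4l with 634 ± 420 CPM per kb, mt-Atp8 with 239 ± 397 and mt-Nd3 with 141 ± 135. The ribosomal RNAs mt-Rnr1 and mt-Rnr2 had 229 ± 151 and 181 ± 102 CPM per kb. Of the transfer RNAs mt-Ts1 had 657 ± 565 CPM per kb and the next, mt-Te, 28.3 CPM per kb. The library kit named in the labels is known for capturing polyadenylated RNA, and how far that set the levels of the ribosomal and transfer RNAs was not tested.

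All 15 messengers and ribosomal RNAs were present in each library, the lowest value being 2.94 CPM for mt-Nd3, and all were tested. Of the transfer RNAs, 5 of 15 passed the filter of 1 CPM in at least 2 libraries. Among them, mt-Tn reached 1 CPM in no 0 Gy library and so passed the filter through irradiated lungs alone. The other 10 stayed low, up to 0.894 CPM for mt-Tw, and were not tested. Differences below are log2 fold changes of CPM + 0.5 with their standard errors, from limma fitted over all 17546 genes past the filter, and a gene is called at a Benjamini-Hochberg adjusted p under 0.05.

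At 8 Gy against 0 Gy, averaged over both antibodies, 11 of the 15 messengers and ribosomal RNAs rose and none fell, while 4.68% of all genes tested were called higher and 16.1% lower. They were the subunits of complex I mt-Nd1, mt-Nd2, mt-Nd4, mt-Nd5 and mt-Nd6, cytochrome b (mt-Cytb), the 3 complex IV subunits and both ribosomal RNAs. The median of the 15 was 1.32 on the log2 scale, with a range of 0.96 to 1.79, beside a median of -0.09 over all genes. At 4 Gy against 0 Gy, 10 of the 15 rose and none fell, where 5.33% of all genes were called higher and 12.2% lower, with a median of 1.40 and a range of 0.94 to 2.45 beside -0.14 over all genes. None of the 5 transfer RNAs passed in either comparison. The comparisons share the 0 Gy libraries.

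**Figure D2:**
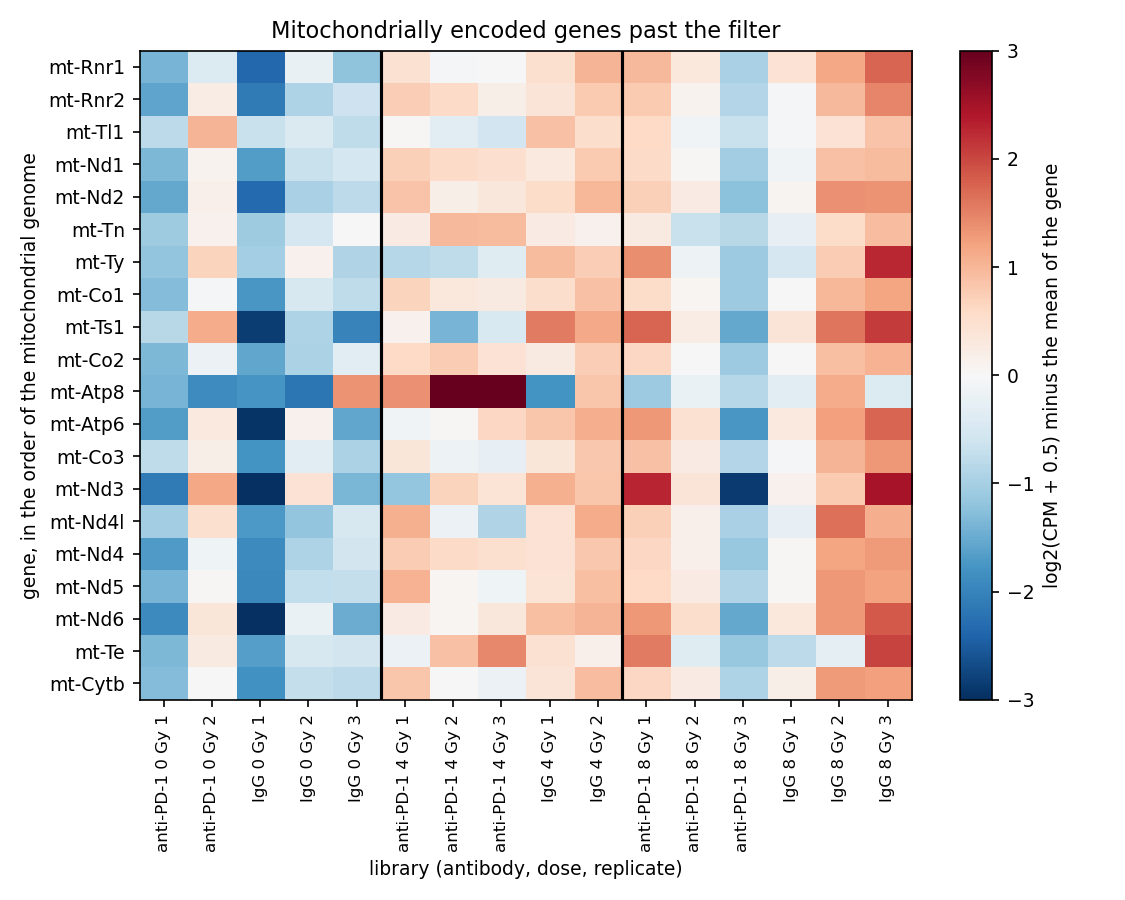
Level of each of the 20 members past the filter (rows, in genome order) in each library (columns), as log2(CPM + 0.5) minus the mean of the gene; colours are capped at 3 either way and black lines part the doses. The lowest library for most genes is replicate 1 of the IgG lungs at 0 Gy, and mt-Atp8 stands out from the other rows in the anti-PD-1 lungs at 4 Gy.

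Within complex I, mt-Nd4, a core membrane subunit, had the highest mean CPM. In anti-PD-1 lungs it had 885 and 2640 CPM at 0 Gy, 4897, 4252 and 4017 CPM at 4 Gy, with 4426, 3217 and 1311 CPM at 8 Gy. The IgG lungs had 761, 1501 and 1973 CPM at 0 Gy, 3857 and 5010 CPM at 4 Gy, with 2957, 6578 and 7020 CPM at 8 Gy. All 5 libraries at 4 Gy were above all 5 at 0 Gy, and at 8 Gy replicate 3 of the anti-PD-1 lungs lay among the 0 Gy values. The log2 fold change was 1.38 ± 0.37 at 8 Gy (limma, adjusted p = 0.0181) and 1.63 ± 0.39 at 4 Gy (limma, adjusted p = 0.0202).

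The membrane subunit mt-Nd5 rose by 1.32 ± 0.37 at 8 Gy (adjusted p = 0.0245) and by 1.39 ± 0.39 at 4 Gy (adjusted p = 0.0320). For mt-Nd1, which lies where the membrane arm meets the quinone site, the values were 1.01 ± 0.33 at 8 Gy (adjusted p = 0.0464) and 1.36 ± 0.35 at 4 Gy (adjusted p = 0.0253). At 8 Gy mt-Nd1 lost its call in 11 of 16 fits without 1 library, with 0.64 without replicate 1 of the anti-PD-1 lungs at 0 Gy. After quantile normalization it had 0.57 (limma, adjusted p = 0.262). Quantile normalization gives each rank the same value in every library, so changes of the most abundant genes can shrink by design. mt-Nd2, a further proton-pumping subunit, rose by 1.44 ± 0.42 (adjusted p = 0.0256) and by 1.65 ± 0.44 (adjusted p = 0.0270) at 8 and 4 Gy. The small subunits mt-Nd4l and mt-Nd3 did not pass, with 1.11 ± 0.45 (adjusted p = 0.0961) and 1.45 ± 0.90 (adjusted p = 0.271) at 8 Gy. mt-Nd3 ranged over 57.0-fold between its highest and lowest library, against 7.65-fold for mt-Co1.

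Only mt-Nd6 among the messengers is encoded on the minus strand. In anti-PD-1 lungs it had 120 and 585 CPM at 0 Gy, 535, 474 and 571 CPM at 4 Gy, with 1116, 655 and 155 CPM at 8 Gy. Its values in IgG lungs were 55.8, 394 and 161 CPM at 0 Gy, 846 and 924 CPM at 4 Gy, with 562, 1116 and 1625 CPM at 8 Gy. The ranges of irradiated and unirradiated lungs overlapped at both doses over both antibodies and within anti-PD-1 lungs. Within IgG lungs all irradiated libraries were above all unirradiated ones. mt-Nd6 rose by 1.79 ± 0.57 at 8 Gy (adjusted p = 0.0390) and had 1.76 ± 0.60 at 4 Gy (adjusted p = 0.0559). Its call at 8 Gy was lost in 9 of 16 fits without 1 library.

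mt-Cytb, the subunit of complex III that carries its b-type haems and quinone sites, had 1994 and 4943 CPM at 0 Gy, 8872, 4995 and 4362 CPM at 4 Gy, with 7617, 5889 and 2623 CPM at 8 Gy in anti-PD-1 lungs. The IgG lungs held 1401, 2992 and 2884 CPM at 0 Gy, 6450 and 9413 CPM at 4 Gy, with 5598, 11996 and 11569 CPM at 8 Gy. Within IgG lungs all irradiated libraries were above all unirradiated ones, and within anti-PD-1 lungs the ranges overlapped at both doses. Its log2 fold change was 1.32 ± 0.35 at 8 Gy (adjusted p = 0.0172) and 1.32 ± 0.37 at 4 Gy (adjusted p = 0.0307). After quantile normalization it was 0.81 (adjusted p = 0.0857) and 0.79 (adjusted p = 0.109).

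The catalytic subunit of complex IV, mt-Co1, had 5065 and 12089 CPM at 0 Gy, 19624, 15548 and 14889 CPM at 4 Gy, with 18264, 12906 and 5807 CPM at 8 Gy in anti-PD-1 lungs. Values in IgG lungs were 3694, 8878 and 7396 CPM at 0 Gy, 18043 and 22957 CPM at 4 Gy, with 12335, 24823 and 28252 CPM at 8 Gy. The 4 Gy libraries were all above the 0 Gy libraries. At 8 Gy all libraries but replicate 3 of the anti-PD-1 lungs were above the highest 0 Gy value. It rose by 1.11 ± 0.34 at 8 Gy (adjusted p = 0.0324) and by 1.39 ± 0.36 at 4 Gy (adjusted p = 0.0245). The copper-binding subunit mt-Co2 rose by 1.09 ± 0.32 at 8 Gy (adjusted p = 0.0290) and 1.40 ± 0.34 at 4 Gy (adjusted p = 0.0211). mt-Co3 rose by 1.08 ± 0.35 at 8 Gy (adjusted p = 0.0428) and had 0.94 ± 0.37 at 4 Gy (adjusted p = 0.0820). At 8 Gy mt-Co3 lost its call in 11 of 16 fits without 1 library. Quantile normalization gave smaller values, at 8 Gy 0.67 for mt-Co1 (limma, adjusted p = 0.0306), 0.72 for mt-Co2 and 0.69 for mt-Co3, the last pair no longer called. At 4 Gy it gave 0.80 for mt-Co1 (limma, adjusted p = 0.0260) and 0.60 for mt-Co3. As it sets values by rank, it can shrink changes of genes this abundant by design, and how far it did was not tested.

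Of complex V, mt-Atp6, which forms the proton channel with the rotor ring, had 329 and 1278 CPM at 0 Gy, 976, 1071 and 1630 CPM at 4 Gy, with 2609, 1435 and 314 CPM at 8 Gy in anti-PD-1 lungs. IgG lungs gave 137, 1158 and 354 CPM at 0 Gy, 1871 and 2232 CPM at 4 Gy, with 1290, 2472 and 3522 CPM at 8 Gy. The 0 Gy values were widely spread, and over both antibodies those at both other doses overlapped them. Within IgG lungs all irradiated libraries were above all unirradiated ones for mt-Atp6, and within anti-PD-1 lungs the ranges overlapped at both doses. Its log2 fold change did not pass, with 1.62 ± 0.59 at 8 Gy (adjusted p = 0.0661) and 1.65 ± 0.62 at 4 Gy (adjusted p = 0.0739).

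Both ribosomal RNAs, the structural core of the mitochondrial ribosome, passed at both doses. The large one, mt-Rnr2, had 79.1 and 278 CPM at 0 Gy, 398, 354 and 268 CPM at 4 Gy, with 411, 258 and 129 CPM at 8 Gy in anti-PD-1 lungs. In IgG lungs it had 54.6, 125 and 155 CPM at 0 Gy, 313 and 409 CPM at 4 Gy, with 234, 465.5 and 662 CPM at 8 Gy. Within IgG lungs the irradiated and unirradiated values were apart, and within anti-PD-1 lungs they overlapped. It rose by 1.36 ± 0.39 at 8 Gy (adjusted p = 0.0262) and by 1.49 ± 0.41 at 4 Gy (adjusted p = 0.0304). The small one, mt-Rnr1, rose by 1.70 ± 0.40 (adjusted p = 0.00988) and by 1.53 ± 0.42 (adjusted p = 0.0299) at 8 and 4 Gy.

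Among the transfer RNAs shown above, mt-Ts1 had 16.2 and 64.4 CPM at 0 Gy, 32.2, 10.9 and 21.3 CPM at 4 Gy, with 101, 34.7 and 9.75 CPM at 8 Gy in anti-PD-1 lungs. Its level in IgG lungs was 3.65, 15.2 and 6.92 CPM at 0 Gy, 87.7 and 65.3 CPM at 4 Gy, with 38.4, 91.2 and 128 CPM at 8 Gy. All irradiated IgG libraries were above the unirradiated IgG libraries, while in anti-PD-1 lungs the doses overlapped. Over both antibodies the log2 fold change was 1.65 ± 0.57 at 8 Gy (adjusted p = 0.0538) and 1.28 ± 0.60 at 4 Gy (adjusted p = 0.132). mt-Tn, the transfer RNA with the lowest p at 4 Gy, had 0 and 0.640 CPM at 0 Gy, 0.738, 1.55 and 1.53 CPM at 4 Gy, with 0.776, 0.163 and 0.089 CPM at 8 Gy in anti-PD-1 lungs. The IgG lungs had 0, 0.245 and 0.537 CPM at 0 Gy, 0.739 and 0.651 CPM at 4 Gy, with 0.388, 1.04 and 1.51 CPM at 8 Gy. The lowest 4 Gy value and the highest 0 Gy value differed by less than the worth of 1 read, and the log2 fold change at 4 Gy was 0.95 ± 0.32 (adjusted p = 0.0547).

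**Figure D3:**
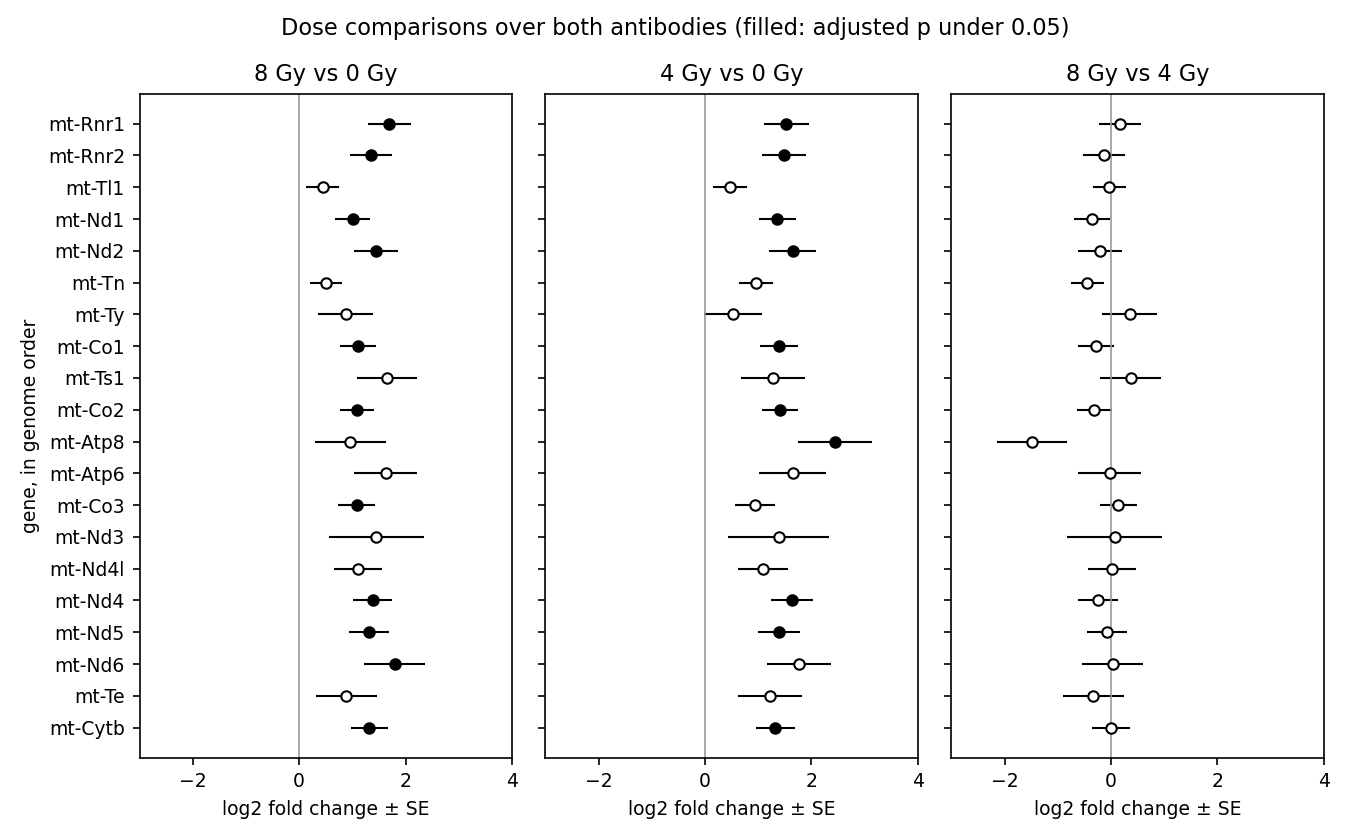
Log2 fold change of CPM + 0.5 ± SE (x axis) of the 20 members past the filter (y axis, genome order) in each dose comparison over both antibodies; filled points have an adjusted p under 0.05. All 20 lie above 0 at 8 Gy against 0 Gy and at 4 Gy against 0 Gy, and none is called at 8 Gy against 4 Gy.

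By range, 6 of the 15 messengers and ribosomal RNAs had every 4 Gy library above every 0 Gy library, where 1.73% of all genes did. They were mt-Co1, mt-Co2, mt-Nd1, mt-Nd2, mt-Nd4 and mt-Rnr1. At 8 Gy none of the 15 was apart from 0 Gy, where 1.54% of all genes had every 8 Gy library higher. At 8 Gy against 4 Gy no member was called by limma and 1 of 20, mt-Atp8, had an unadjusted p under 0.05, while 34.3% of all genes were called in either direction. The median of the 15 was -0.08 in that comparison, and their ranges at 8 and 4 Gy overlapped without exception. The count of 0 became 1 without replicate 3 of the IgG lungs at 0 Gy, replicate 1 of the IgG lungs at 4 Gy or replicate 1 of the anti-PD-1 lungs at 4 Gy.

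The counts of called members rested on single libraries, while the fold changes of the messengers and ribosomal RNAs over both antibodies at 8 or 4 Gy against 0 Gy stayed above 0 in every fit without 1 library. At 8 Gy against 0 Gy the count of 11 became 0 without replicate 1 of the anti-PD-1 lungs at 0 Gy, 3 without replicate 1 of the IgG lungs at 0 Gy, 3 without replicate 2 or without replicate 3 of the IgG lungs at 8 Gy, and 3 and 4 without replicates 1 and 2 of the anti-PD-1 lungs at 8 Gy. At 4 Gy against 0 Gy the count of 10 became 0 without replicate 1 of the anti-PD-1 lungs at 0 Gy or without replicate 2 of the IgG lungs at 4 Gy, 4 without replicate 1 of the IgG lungs at 0 Gy, 5 without replicate 1 of the IgG lungs at 4 Gy, and 5 and 3 without replicates 2 and 3 of the anti-PD-1 lungs at 4 Gy. After quantile normalization the members called were mt-Co1, mt-Rnr1, mt-Rnr2 and mt-Ts1 at 8 Gy, and mt-Co1, mt-Co2, mt-Nd2, mt-Atp8, mt-Rnr1 and mt-Rnr2 at 4 Gy. Replicates 2 and 3 of the anti-PD-1 lungs at 4 Gy stood apart from the other libraries over all genes, with 6108 and 5330 genes without a read, where the others had 2285 to 3863. Without both of them no member was called at 4 Gy, where 0.503% of all genes were called in either direction. The log2 fold changes were then 1.52 for mt-Co1 (adjusted p = 0.127), 1.71 for mt-Nd4 (adjusted p = 0.123) and 1.63 for mt-Cytb (adjusted p = 0.108), and the 3 remaining 4 Gy libraries held 4.99% to 6.54% mitochondrial CPM.

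Within each antibody, the members called at 8 Gy were found in IgG lungs. There 12 of 20 rose and none fell, where 1.44% of all genes were called higher and 9.12% lower: the same 11 messengers and ribosomal RNAs and mt-Ts1. mt-Rnr1 rose by 2.38 ± 0.53 (limma, adjusted p = 0.0159), mt-Ts1 by 3.30 ± 0.76 (limma, adjusted p = 0.0173) and mt-Cytb by 2.00 ± 0.47 (limma, adjusted p = 0.0180). Every 8 Gy library was above every 0 Gy library for 13 of the 15 messengers and ribosomal RNAs, where 5.37% of all genes were. The count became 0 without replicate 1 of the IgG lungs at 0 Gy, without replicate 2 of the IgG lungs at 8 Gy or without replicate 3 of the IgG lungs at 8 Gy.

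In anti-PD-1 lungs no member was called at 8 Gy against 0 Gy by limma, none had an unadjusted p under 0.05, and 2.83% of all genes were called in either direction. The median log2 fold change of the 15 messengers and ribosomal RNAs was 0.64, with mt-Co1 at 0.50 (adjusted p = 0.646) and mt-Ts1 at 0.01 (adjusted p = 0.997). The difference between the antibodies in the 8 Gy fold change was itself tested and called for no member, for 1 at an unadjusted p under 0.05, and for 0% of all genes. It lay below 0 for all 20, at -1.21 for mt-Co1 and -3.29 for mt-Ts1, each with an adjusted p of 0.997. At 8 Gy, anti-PD-1 lungs against IgG lungs gave no called member and none at an unadjusted p under 0.05, with a median of -0.89 over the 15, where 0.00570% of all genes were called.

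At 4 Gy against 0 Gy in IgG lungs, which had 2 libraries at 4 Gy, no member was called by limma although 15 of 20 had an unadjusted p under 0.05, and 0.00570% of all genes were called in either direction. The median log2 fold change of the 15 messengers and ribosomal RNAs was 1.78, and for 14 of them each 4 Gy library was above each 0 Gy library, where 6.37% of all genes were. mt-Atp8 was the exception. In anti-PD-1 lungs 3 of 20 members were called higher at 4 Gy, mt-Atp8, mt-Co2 and mt-Nd4, near the 13.4% of all genes called higher. None was called lower, where 25.9% of all genes were. mt-Co2 had 3236, 3622 and 2888 CPM at 4 Gy, against 840 and 1897 CPM at 0 Gy, and rose by 1.36 (adjusted p = 0.0378). mt-Nd4 rose by 1.52 (adjusted p = 0.0421). By range, 7 of the 15 had all 4 Gy libraries above all 0 Gy libraries, where 24.5% of all genes did. That count of 3 became 1 without either replicate of the anti-PD-1 lungs at 0 Gy and without either of replicates 2 and 3 at 4 Gy, 0 without both of the last, and 1 with the replicate number as a block.

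Over all doses together, anti-PD-1 lungs did not differ from IgG lungs in any member by limma, with none at an unadjusted p under 0.05 and a median of -0.25 over the 15, where 0.234% of all genes were called. At 0 Gy no member was called and 1, mt-Ts1, had an unadjusted p under 0.05, where 0.274% of all genes were called. mt-Ts1 had 16.2 and 64.4 CPM in unirradiated anti-PD-1 lungs, against 3.65, 15.2 and 6.92 CPM in unirradiated IgG lungs. Its difference of 2.07 had an adjusted p of 0.408.

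mt-Atp8, a short subunit of the ATP synthase stator that was singled out after its values were seen, had its highest values in other libraries than most members. In anti-PD-1 lungs it had 7.18 and 4.97 CPM at 0 Gy, 51.7, 240 and 263 CPM at 4 Gy, with 9.02, 17.1 and 10.8 CPM at 8 Gy. In IgG lungs it had 5.42, 4.05 and 51.3 CPM at 0 Gy, 5.32 and 35.5 CPM at 4 Gy, with 15.9, 43.7 and 14.8 CPM at 8 Gy. The 3 anti-PD-1 libraries at 4 Gy were above every other library, with 1 library of unirradiated IgG lungs close to the lowest of them. At 4 Gy it rose by 4.52 in anti-PD-1 lungs (limma, adjusted p = 0.00584), and over both antibodies by 2.45 ± 0.70 (limma, adjusted p = 0.0324).

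At 8 Gy against 4 Gy in anti-PD-1 lungs mt-Atp8 fell by 3.59 (limma, adjusted p = 0.00715) and mt-Tn fell by 1.12 (limma, adjusted p = 0.0407), the only 2 of 20 members called there, though mt-Tn reached 1 CPM in anti-PD-1 lungs at 4 Gy alone, where 17.5% of all genes were called lower and 24.4% higher. No member was called in that comparison in IgG lungs, none had an unadjusted p under 0.05, and 7.58% of all genes were called. Anti-PD-1 against IgG lungs at 4 Gy gave 1 called member of 20, mt-Atp8, higher by 3.36 (limma, adjusted p = 0.0410). Of all genes, 6.90% were called higher there and 8.57% lower. For 8 members, mt-Atp6 and mt-Ts1 among them, every anti-PD-1 library at 4 Gy was below both IgG libraries, where 25.8% of all genes were. Without replicates 2 and 3 of the anti-PD-1 lungs at 4 Gy, mt-Atp8 had 3.01 at 4 Gy against 0 Gy (adjusted p = 0.233), -2.08 at 8 Gy against 4 Gy and 1.85 against IgG lungs at 4 Gy, and was called in none of them. The 2 members called between 8 and 4 Gy became 1 without either IgG library at 4 Gy, replicate 2 of the IgG lungs at 8 Gy, or replicate 2 or 3 of the anti-PD-1 lungs at 4 or at 8 Gy. The 1 called between antibodies became 0 without any 1 of those or of the anti-PD-1 libraries at 0 Gy.

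The antibodies' dose responses of mt-Atp8 differed by 4.15 between 4 and 0 Gy (limma, adjusted p = 0.0667) and by -4.21 between 8 and 4 Gy (limma, adjusted p = 0.0921). For mt-Ts1 the difference between 4 and 0 Gy was -3.99 (limma, adjusted p = 0.0512). No member was called in either test of a difference, 3 and 2 had an unadjusted p under 0.05, and 9.08% and 0% of all genes were called. The counts of 0 became 2 without replicate 2 of the IgG lungs at 0 Gy or replicate 1 of the anti-PD-1 lungs at 4 Gy in the first test, and 1 without replicate 3 of the IgG lungs at 0 Gy or replicate 1 of the anti-PD-1 lungs at 4 Gy in the second. The ratio of mt-Atp8 to mt-Atp6, which share the bases in capitals above, was 5.30%, 22.4% and 16.1% in anti-PD-1 lungs at 4 Gy and 0.285% to 14.5% in the other libraries.

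Ratios between members change only if their RNAs change by unequal amounts, and 3 were compared across doses with exact permutation tests (two-sided, libraries permuted within antibody, Benjamini-Hochberg over 9 tests). None passed. The log2 ratio of mt-Nd1, near the start of the precursor, to mt-Cytb, near its end, was -0.94 ± 0.11 (SD, n = 5) at 0 Gy, -0.86 ± 0.40 (SD, n = 5) at 4 Gy and -1.26 ± 0.13 (SD, n = 6) at 8 Gy. For 8 Gy the exact permutation p was 0.01 against 0 Gy (adjusted 0.09) and 0.02 against 4 Gy (adjusted 0.09), where the smallest possible is 0.005. mt-Nd6 to mt-Nd5, opposite strands of the overlap shown above, was -2.61 ± 0.71 at 0 Gy, -2.25 ± 0.52 at 4 Gy and -2.10 ± 0.49 at 8 Gy (8 Gy against 0 Gy, exact permutation p = 0.245, adjusted 0.441). mt-Rnr2 to mt-Co1, a ribosomal RNA to a messenger, was -5.85 ± 0.32 at 0 Gy, -5.71 ± 0.16 at 4 Gy and -5.58 ± 0.14 at 8 Gy (8 Gy against 0 Gy, exact permutation p = 0.13, adjusted 0.304).

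**Figure D4:**
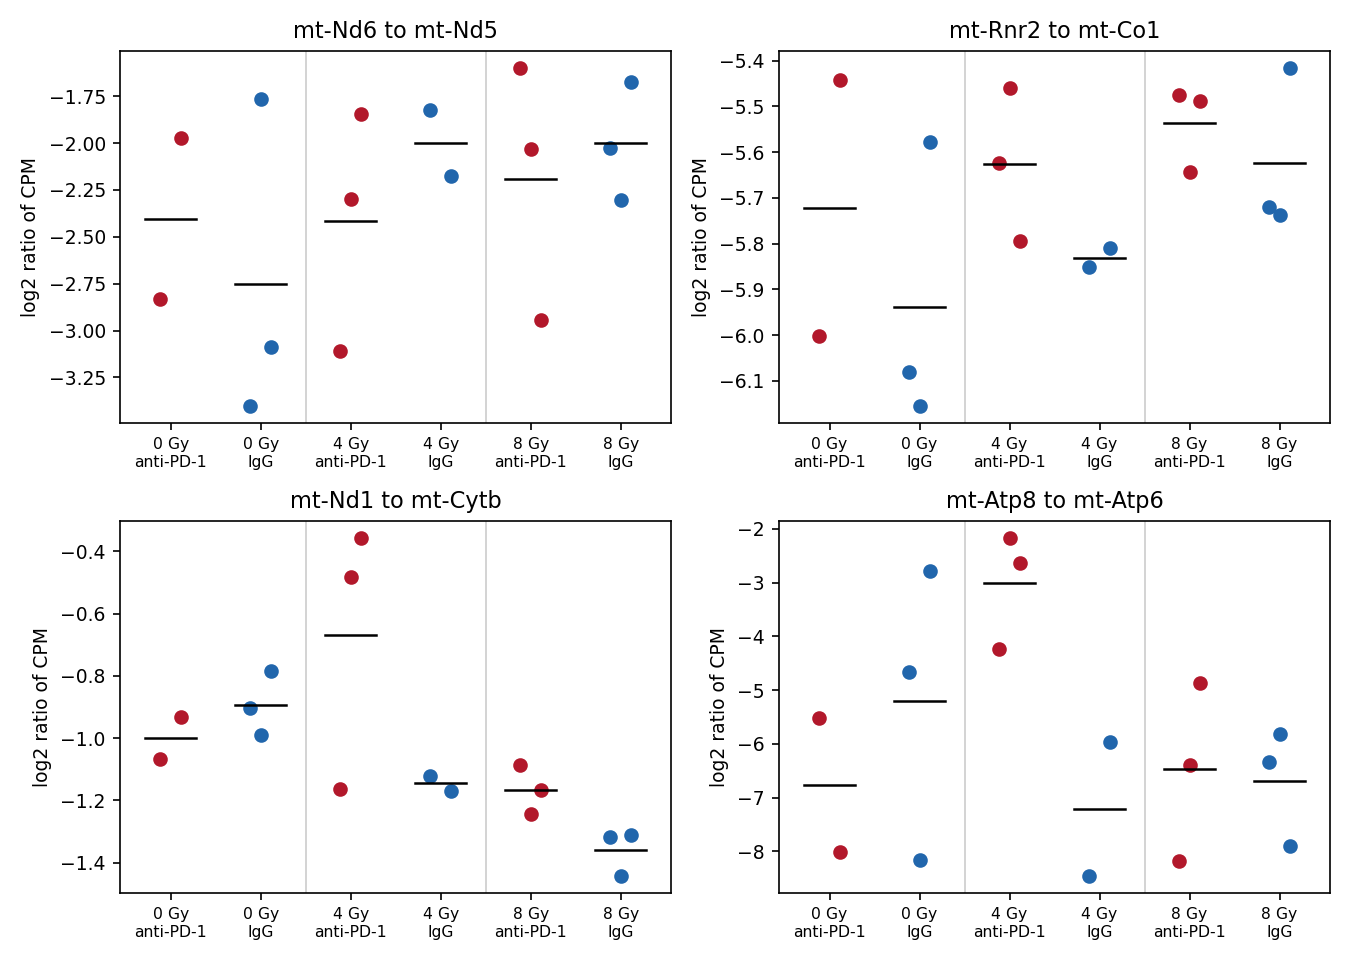
Log2 ratio of CPM between pairs of members (y axes) by dose and antibody (x axes); each point is 1 library and each line a group mean. The ratio of mt-Nd1 to mt-Cytb lies at -0.94 on average at 0 Gy and -1.26 at 8 Gy, and the group mean of mt-Atp8 to mt-Atp6 is highest in the anti-PD-1 lungs at 4 Gy.

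Most nuclear subunits of the same complexes were not called where the mitochondrial ones were. At 8 Gy against 0 Gy, 9 of the 13 mitochondrially encoded subunits of complexes I, III, IV and V rose, with a median of 1.32. By limma none of 78 nuclear subunits was called in either direction (8 at an unadjusted p under 0.05), with a median of 0.09. Of all 17546 genes tested, 4.68% were called higher and 16.1% lower, and 6092 had an unadjusted p under 0.05. At 4 Gy against 0 Gy 8 of the 13 rose, with a median of 1.39, where 5.33% of all genes were called higher and 12.2% lower. Of the 78 nuclear subunits 3 (3.85%) rose and 4 (5.13%) fell there, below both shares, with a median of 0.08. By limma, those that rose were Uqcrq of complex III by 0.73, and Cox4i2 by 1.59 and Cox6a2 by 0.94, which encode the lung-enriched and the muscle-enriched forms of complex IV subunits. Those that fell were Ndufs1 and Ndufa9 of complex I, at -0.43 and -0.30, Uqcrc2 of complex III at -0.45 and Atp5a1 of complex V at -0.37. Of complex II, which has nuclear subunits alone, none of 4 was called at 8 Gy (0 at an unadjusted p under 0.05), and 1, Sdha, fell by 0.35 at 4 Gy. Without replicates 2 and 3 of the anti-PD-1 lungs at 4 Gy all of these calls at 4 Gy were lost by limma, Sdha included: 0 of the 78 were then called (8 at an unadjusted p under 0.05), with Uqcrc2 at -0.20, and 2 of the 78 were called higher at 8 Gy. The lists differ in size and level, and the difference between them was not tested.

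**Figure D5:**
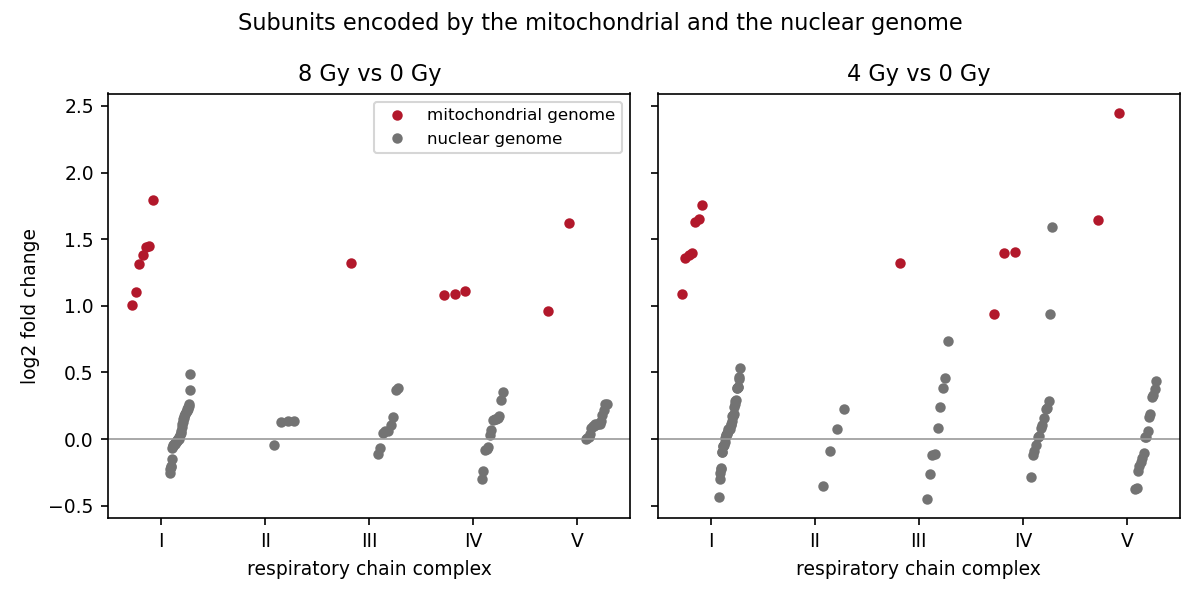
Log2 fold change of CPM + 0.5 (y axis) of the subunits of each respiratory complex (x axis), with those of the mitochondrial genome in red and those of the nuclear genome in grey. At 8 Gy against 0 Gy the mitochondrial subunits lie between 0.96 and 1.79 and the nuclear ones of complexes I, III, IV and V between -0.30 and 0.49.

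Of the 18 nuclear genes listed for transcription and replication of mitochondrial DNA, 3 (16.7%) fell and none rose at 8 Gy against 0 Gy, near the 16.1% of all genes called lower. They were the mitochondrial RNA polymerase Polrmt, at -0.55 (limma, adjusted p = 0.00909), and the subunits of the mitochondrial DNA polymerase Polg, at -0.52 (adjusted p = 0.0114), and Polg2, at -0.57 (adjusted p = 0.00594). The transcription and packaging factor Tfam stood at 0.07 (adjusted p = 0.745). At 4 Gy none of the 18 was called by limma, where 5.33% of all genes were called higher and 12.2% lower. Of the 18, 4 had an unadjusted p under 0.05, where 6710 of 17546 genes did, and Tfam stood at -0.34 (limma, adjusted p = 0.0878). The median of the list was -0.16 at 8 Gy and -0.14 at 4 Gy, beside -0.09 and -0.14 over all genes.

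Of 30 genes for processing and decay of mitochondrial RNA, 3 fell at 8 Gy, where 16.1% of all genes were called lower, and none rose: the transfer RNA thiolase Trmu at -0.76, Fastk at -0.58 and the ribosomal RNA methyltransferase Nsun4 at -0.50. At 4 Gy 2 fell, Fastkd3 at -0.59 and the RNase P nuclease Prorp at -0.54, where 12.2% of all genes were called lower, and none rose. Lrpprc, which stabilises mitochondrial messengers, stood at 0.26 at 8 Gy (adjusted p = 0.129) and -0.19 at 4 Gy (adjusted p = 0.266). Of 13 tested regulators of mitochondrial biogenesis none was called at 8 Gy by limma (2 at an unadjusted p under 0.05). At 4 Gy 3 fell: the coactivator Ppargc1a at -0.76, and the transcription factors Yy1 at -0.45 and Gabpa at -0.46. Without replicates 2 and 3 of the anti-PD-1 lungs at 4 Gy these 4 Gy calls were all lost, with Fastkd3 at -0.40 (adjusted p = 0.201), Prorp at -0.35 (adjusted p = 0.243), Ppargc1a at -0.57 (adjusted p = 0.297), Yy1 at -0.33 (adjusted p = 0.123) and Gabpa at -0.26 (adjusted p = 0.272). Ppargc1a also lost its call in 12 of 16 fits without 1 library and in 8 of 10 other settings. Its mean log2(CPM + 0.5) was 0.51, near the filter of 1 CPM.

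Of 18 nuclear genes that mark mitochondrial content, 2 rose at 8 Gy, cytochrome c (Cycs) by 0.68 and the import channel Timm23 by 0.28, and 1 fell, the import motor Timm44 at -0.32, where 4.68% of all genes were called higher and 16.1% lower. Cycs lost its call in 11 of 16 fits without 1 library. None of the 18 was called at 4 Gy by limma, and 4 had an unadjusted p under 0.05. Their summed level was 2095 to 2338 CPM at 0 Gy, 1840 to 2198 CPM at 4 Gy and 2191 to 2639 CPM at 8 Gy. The doses overlapped over both antibodies but not within anti-PD-1 lungs, which had 2248 to 2338 CPM at 0 Gy, 1840 to 2084 CPM at 4 Gy and 2471 to 2639 CPM at 8 Gy. Those groups held 2, 3 and 3 libraries, with replicates 2 and 3 at 4 Gy among them. Separation was common there, as 24.5% of all genes had every 4 Gy library above every 0 Gy library, the other direction from this sum. Of 78 mitochondrial ribosomal proteins 4 rose and 4 fell at 8 Gy, and 3 rose and 3 fell at 4 Gy, with medians of 0.10 and 0.07, where 4.68% of all genes were called higher and 16.1% lower at 8 Gy, and 5.33% and 12.2% at 4 Gy. Without replicates 2 and 3 of the anti-PD-1 lungs at 4 Gy none of the 78 was called at 4 Gy by limma (7 at an unadjusted p under 0.05).

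Markers of several cell types also differed between the doses, and their part in the mitochondrial values was not tested. Over all genes 4.68% were called higher and 16.1% lower at 8 Gy, and 5.33% and 12.2% at 4 Gy. All 7 red cell genes rose at 8 Gy against 0 Gy and 2 of 7 at 4 Gy, with summed levels of 1961 to 21926 CPM at 0 Gy, 5294 to 30116 CPM at 4 Gy and 6482 to 22297 CPM at 8 Gy. Of 6 alveolar type 2 genes 5 rose at 4 Gy and 1 fell at 8 Gy, with 961 to 5166 CPM at 0 Gy, 5266 to 12965 CPM at 4 Gy and 1461 to 2828 CPM at 8 Gy. The 4 club cell genes all rose at 4 Gy, and none was called at 8 Gy by limma (1 at an unadjusted p under 0.05). Of 4 genes each, 3 rose at 4 Gy for alveolar type 1 cells and endothelium and 2 for ciliated cells, while 3, 1 and 2 fell at 8 Gy. Heart muscle genes, 3 of 8 higher at 4 Gy and 1 of 8 lower at 8 Gy, summed to 35.4 to 49.3 CPM at 0 Gy, 27.5 to 115.6 CPM at 4 Gy and 21.5 to 41.7 CPM at 8 Gy. All 4 skeletal muscle genes tested fell at both doses. Of 3 genes of brown and white fat, 1 rose and 1 fell at 8 Gy. At 4 Gy none of the 3 was called by limma (2 at an unadjusted p under 0.05). Of 4 neutrophil genes 1 rose at 8 Gy and 1 fell at 4 Gy. No macrophage or T cell gene, of 4 each, was called at either dose by limma. At an unadjusted p under 0.05 there was 1 macrophage gene at each dose, with 0 and 2 T cell genes at 8 and 4 Gy. Of 4 nuclear-retained long noncoding RNAs 2 fell at 8 Gy and none was called at 4 Gy by limma (1 at an unadjusted p under 0.05), with 1077 to 2019 CPM at 0 Gy, 1067 to 2502 CPM at 4 Gy and 508 to 1303 CPM at 8 Gy. Without replicates 2 and 3 of the anti-PD-1 lungs at 4 Gy, where 0.312% of all genes were called higher and 0.191% lower, the 4 Gy calls left were 2 of 4 club cell genes and 1 of 4 alveolar type 1 genes higher and 3 of 4 skeletal muscle genes lower. The red cell calls at 8 Gy ran from 0 to 7 of 7 in fits without 1 library.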

How the data were processed

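RNA of whole tumour-bearing lungs was sequenced from 16 libraries, each a pool of mice. Per the labels' protocols, libraries were made with an Illumina TruSeq RNA kit, and the submitters' processing notes name STAR, Partek and mm10. How reads were counted is not given in these sources. The deposited values are CPM, a gene's reads scaled to the library's total, to which the authors added 1e-04, subtracted here. By the smallest step between values, 1 read was worth 0.0155 to 0.0418 CPM and 3 reads 0.0465 to 0.125 CPM. Between 60.7% and 63.8% of values below 100 reads came out whole (tolerance 0.02), which is too few to rebuild counts, so no count test was run.

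Genes with at least 1 CPM in at least 2 libraries were tested as log2(CPM + 0.5), which understates changes of low genes, in limma 3.58.1 (R 4.3.3, trend and robust) with 6 group means and Benjamini-Hochberg adjustment over all genes tested. Dose comparisons average both antibodies with equal weight. The fit was tested on simulated data. Ratios were tested by exact permutation. Python 3.11.15, numpy 2.4.6, pandas 2.3.3 and matplotlib 3.10.9 were used for the rest. P-values measure only the spread between these pools. The members and lists were chosen with earlier results of these data known. Values per library are given for the member with the highest mean CPM of each class, mt-Nd6 and the transfer RNA with the lowest p at 4 Gy. Of the genes of the ratios, mt-Nd1 and mt-Nd5 have fold changes without values per library. Fold changes are given for up to 3 nuclear genes a list by p beside Polrmt, Tfam, Ppargc1a and Lrpprc. No gene of the list of mitochondrial ribosomal proteins is named. The other members named, mt-Atp8 among them, were chosen after their values were seen. Alternatives were other normalizations, filters, pseudocounts and models, and leaving out libraries.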

Additional observations from a re-analysis of the deposited data

Results flagged for a closer look

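Libraries far from the rest of their dose were found in 7 of 93 sets of values compared, and about 1 in 20 sets is marked so by chance. Of levels, mt-Atp8 stood at 51.3 CPM in replicate 3 of the IgG lungs at 0 Gy, where the others had 4.05 to 7.18 CPM, and at 43.7 CPM in replicate 2 of the IgG lungs at 8 Gy, where the others had 9.02 to 17.1 CPM. Replicate 2 of the anti-PD-1 lungs at 0 Gy, the unirradiated library with the highest mitochondrial share, held 64.4 CPM of mt-Ts1, where the others had 3.65 to 16.2 CPM, and 1.48 CPM of mt-Tl1, where the others had 0.0668 to 0.222 CPM. Of log2 ratios, mt-Nd3 to mt-Co1 was -10.55 in replicate 1 of the anti-PD-1 lungs at 4 Gy, where the others had -8.76 to -8.16. In replicate 3 of the anti-PD-1 lungs at 8 Gy, the library with the lowest mitochondrial share at that dose, mt-Nd6 to mt-Co1 was -5.23, where the others had -4.48 to -4.03, and mt-Atp6 to mt-Co1 was -4.21, where the others had -3.33 to -2.81.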

How the results depend on the processing

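Members called at 8 Gy against 0 Gy numbered 4 after quantile normalization and 4 with only the groups compared in the fit, at 4 Gy against 0 Gy 6 and 0, and at 8 Gy against 0 Gy in IgG lungs 4 and 2. Fitting only the groups compared also gave 1 at 8 Gy against 4 Gy, 3 between antibodies at 4 Gy and 1 for the antibody difference in 8 Gy against 4 Gy. In anti-PD-1 lungs 5 were called at 4 Gy against 0 Gy with library medians set equal, and at 8 Gy against 4 Gy 1 after quantile normalization, 1 with the filter at 5 CPM and 1 with a pseudocount of 0.1. Without a filter, 2 were called between antibodies at 4 Gy. For the antibody difference in 4 Gy against 0 Gy, 1 was called after quantile normalization and 1 with the filter at 5 CPM. Without replicates 2 and 3 of the anti-PD-1 lungs at 4 Gy, the counts at 4 Gy against 0 Gy over both antibodies, in anti-PD-1 lungs, at 8 Gy against 4 Gy in anti-PD-1 lungs and between antibodies at 4 Gy were all 0. With the filter at 5 CPM mt-Tn, whose highest value was 1.55 CPM, was not in the fit and so could not be called. Quantile normalization can shrink changes of the most abundant members by design. For the other changes in count between fits the cause was not tested. CPM rescaled without the mitochondrial genes moved no count of members by over 1.5 times.

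The replicate number as a block gave 10 members at 8 Gy against 0 Gy, 10 at 4 Gy against 0 Gy, 1 at 4 Gy against 0 Gy in anti-PD-1 lungs and 0 between antibodies at 4 Gy. Same-numbered libraries correlated at a median of -0.10 (-0.55 to 0.44, 36 pairs) in their deviations from group means, and the others at 0.02, so numbers were not taken to pair libraries.

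Leaving out 1 library at a time, counts ran 0 to 14 at 8 Gy against 0 Gy, 0 to 12 at 4 Gy against 0 Gy, 0 to 1 at 8 Gy against 4 Gy, 0 to 14 at 8 Gy against 0 Gy in IgG lungs, 1 to 4 at 4 Gy against 0 Gy and 1 to 2 at 8 Gy against 4 Gy in anti-PD-1 lungs, 0 to 1 between antibodies at 4 Gy, and 0 to 2 and 0 to 1 for the antibody differences in 4 Gy against 0 Gy and 8 Gy against 4 Gy. In anti-PD-1 lungs mt-Co1 ran from -0.12 to 1.13 and mt-Ts1 from -0.97 to 0.99 at 8 Gy, and mt-Ts1 from -1.69 to 0.27 at 4 Gy, against 0 Gy. Differences in log2 ratio ran from -0.060 to 0.30 for mt-Nd6 to mt-Nd5 at 8 Gy against 4 Gy, and at 4 Gy against 0 Gy from -0.037 to 0.24 for mt-Rnr2 to mt-Co1 and from -0.038 to 0.16 for mt-Nd1 to mt-Cytb, the last -0.21 without both outlying libraries. For mt-Nd1 to mt-Cytb they ran from -0.35 to -0.28 at 8 Gy against 0 Gy and from -0.48 to -0.28 at 8 Gy against 4 Gy, and permuting without regard to antibody gave -0.33 at 8 Gy against 0 Gy (exact permutation, adjusted p = 0.039). The 10 transfer RNAs under 1 CPM were not tested. The counts of nuclear and marker genes called without both outlying libraries or without 1 library were added after seeing the data.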
